A study of Mus musculus with 10 samples.

Results

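Hepatic mRNA levels of 10 genes of iron handling were read in *db/db* AAV8-Control livers. The genes were *Hamp*, *Hamp2*, *Tfrc*, *Tfr2*, *Trf*, *Fth1*, *Hfe*, *Bmp6*, *Slc40a1* and *Cp*. They were chosen by symbol, with earlier results of these data known, and all 10 were found among the 15126 genes of the deposited table. The mice were male, leptin receptor-deficient (*db/db*), obese and diabetic, and 10 weeks old. They had received adeno-associated virus serotype 8 encoding eGFP by tail vein, and livers were taken 5 weeks after infection. The group held 5 libraries, numbered 1 to 5 as in the labels. The labels do not state that they came from separate mice, so the spread between libraries may be partly technical, and the promoter that drives the transgene was not given in the sources used here. The cell type label and the protocol text name primary hepatocytes, the latter in culture with adenovirus, whereas the tissue and source labels and the study's methods name liver, after AAV8.

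The liver is the organ that sets body iron. Hepatocytes secrete hepcidin, a small peptide that binds ferroportin, the only known cellular iron exporter, and causes its loss from the cell surface, so that less iron enters plasma from gut, macrophages and liver. Transcription of hepcidin rises with iron through bone morphogenetic protein (BMP) signals from sinusoidal endothelial cells, sensed with the help of HFE and transferrin receptor 2, and rises in inflammation through interleukin 6 and STAT3. The levels of ferritin, transferrin receptor 1 and ferroportin are also set after transcription, by iron regulatory proteins that bind hairpins in their mRNAs. Iron and hepcidin peptide were not measured here, and mRNA of proteins under such control need not follow the protein.

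Every member passed the filter on low values (a mean of 1 CPM or more, where CPM is the reads of a gene scaled to a common total of reads counted on genes). With 1 group of libraries described, the values are levels and their spread, and no test between groups is attached. The libraries held 19499795 to 35498596 reads. As these are bulk samples, fewer cells of a type and less RNA per cell cannot be told apart.

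*Hamp* and *Hamp2* are neighbouring copies of the hepcidin gene on the reverse strand of chromosome 7, and mice have both where humans have one. *Hamp* encodes the peptide that acts on ferroportin, and *Hamp2* encodes a related peptide with little or no such activity. In GRCm38 *Hamp* spans chr7:30942368-30944032 with 3 merged exons, and *Hamp2* spans chr7:30922372-30924681 with 4. The final 25 codons, which hold the mature peptide, are shown because this is where the copies differ most. Capitals mark the 14 of 75 bases that differ.
Hamp: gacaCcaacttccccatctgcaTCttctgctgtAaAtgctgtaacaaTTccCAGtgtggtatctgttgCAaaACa
Hamp2: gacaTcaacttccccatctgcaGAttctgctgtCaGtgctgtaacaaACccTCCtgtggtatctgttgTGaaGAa
Over the whole coding sequence without the stop codon, 233 of 249 bases (93.6%) were identical. Of the 361 possible 50-base reads of the *Hamp* mRNA 60 occur unchanged in *Hamp2*, as do 60 of the 371 of *Hamp2* in *Hamp*. Reads of 50 bases were counted only where they aligned uniquely, so these stretches add to neither gene. In addition 89 exonic bases of *Hamp2* overlap *Gm44662*, a long non-coding RNA gene on the opposite strand that is not in the deposited table. If the annotation used for counting held *Gm44662*, unstranded counting would drop reads there as ambiguous.

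The 250 bases before the RefSeq start of each hepcidin gene (GRCm38.p6, printed on the strand of the gene) are shown because the BMP and STAT3 inputs act there. Capitals mark GGCGCC, the core of a BMP-responsive element, and TTCNNNGAA, a STAT3 motif. Both strands were searched.
Hamp (chr7:30944030-30944279, strand -): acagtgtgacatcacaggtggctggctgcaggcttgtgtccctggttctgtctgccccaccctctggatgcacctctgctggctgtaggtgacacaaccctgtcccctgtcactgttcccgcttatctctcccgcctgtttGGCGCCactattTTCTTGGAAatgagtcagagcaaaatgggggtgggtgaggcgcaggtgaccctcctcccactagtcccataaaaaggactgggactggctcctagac
Hamp2 (chr7:30924182-30924431, strand -): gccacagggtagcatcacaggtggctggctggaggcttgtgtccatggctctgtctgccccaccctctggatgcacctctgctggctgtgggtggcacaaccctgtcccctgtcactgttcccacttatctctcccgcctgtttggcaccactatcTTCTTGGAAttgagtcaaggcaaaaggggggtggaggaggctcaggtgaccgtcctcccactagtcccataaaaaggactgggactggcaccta
The *Hamp* window held GGCGCC starting 109 bases before the start and TTCTTGGAA starting 97 bases before it. The *Hamp2* window held TTCTTGGAA at 94 bases before its start and no GGCGCC. These motifs are common, since GGCGCC was found in 9.54% and TTCNNNGAA in 7.18% of 27025 promoter windows of this length. The windows of the 2 genes were identical in 227 of 247 aligned columns (91.9%). By the annotation used for exons, the *Hamp2* window lies wholly inside the span of *Hamp2* given above, whose start is further upstream than that of RefSeq, so its distances hold for the RefSeq start only. A match is a run of letters and was not tested for binding.

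*Hamp* was at 383, 449, 342, 678 and 595 CPM in libraries 1 to 5, a mean of 489 ± 143 CPM (SD, n = 5 libraries). Libraries 4 and 5 were high and library 3 was lowest, with 1.98 times as much in the highest as in the lowest library. Each value rested on 7463 to 18600 reads, so counting error is small beside this spread. The SD on log2(CPM + 1) was 0.42, and 97.1% of the 11041 genes over the filter had a lower one.

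*Hamp2* was at 715, 394, 545, 559 and 459 CPM, a mean of 534 ± 121 CPM (SD, n = 5 libraries). Its highest value was in library 1, where *Hamp* was second lowest. Its SD on the log2 scale was 0.32, above that of 92.8% of genes. By mean CPM the hepcidins lay above 97.8% (*Hamp*) and 97.9% (*Hamp2*) of genes over the filter.

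The 2 copies did not keep a fixed ratio. *Hamp2* made up 65.1, 46.8, 61.4, 45.2 and 43.5% of the reads of both hepcidins, a mean of 52.4 ± 10.1% (SD, n = 5 libraries). Libraries 1 and 3 lay above 60% and the other 3 below 47%. Summed over both genes, hepcidin mRNA was at 1098, 844, 886, 1237 and 1054 CPM, a mean of 1024 ± 161 CPM. Its highest library held 1.47 times as much as its lowest, less than for either gene alone. The fold of a sum cannot exceed the larger fold of its parts, and compensation between the copies was not tested.

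**Figure D1:**
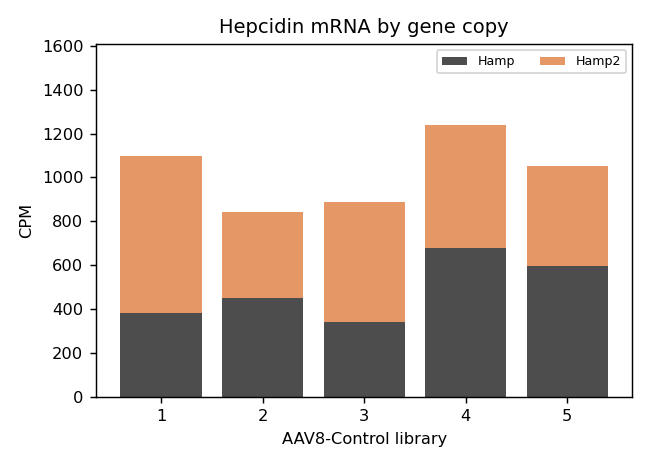
CPM of *Hamp* (dark grey) and *Hamp2* (orange), stacked, in each AAV8-Control library. The total runs from 844 to 1237 CPM, and *Hamp2* makes up 65.1% of it in library 1 and 43.5% in library 5.

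Among the sensors of iron, *Tfr2* encodes the hepatocyte receptor for iron-loaded transferrin that takes part in hepcidin control. It was at 410, 376, 405, 388 and 411 CPM, a mean of 398 ± 15.5 CPM (SD, n = 5 libraries). *Hfe*, the haemochromatosis gene, encodes an MHC class I-like protein that binds transferrin receptors, and was at 69.4, 68.3, 63.4, 64.3 and 60.6 CPM. These sensors were the steadiest members, with coefficients of variation of 3.90% (*Tfr2*) and 5.57% (*Hfe*). Only 6.19% of genes over the filter had a lower SD on the log2 scale than *Tfr2*, and 16.1% a lower one than *Hfe*.

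*Bmp6* encodes the BMP ligand that is induced by iron, made in liver mainly by sinusoidal endothelial cells. Its level was the lowest of the members, at 4.36, 2.41, 3.63, 1.82 and 1.88 CPM, from 39 to 129 reads per library. Its coefficient of variation of 39.9% was the highest of the 10. The summed level of 8 sinusoidal endothelial markers was 278, 197, 235, 138 and 191 CPM in the same libraries. Both were highest in library 1 and lowest in library 4, and ranked the 5 libraries in the same order. The part of endothelial RNA in the *Bmp6* values was not tested. *Bmp6* also shares 224 exonic bases with *Txndc5* on the opposite strand, which was at 176 CPM on average. Only unambiguous reads were counted and no strand setting is stated, so reads there would be missing from *Bmp6* if strand was not used.

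Uptake, storage and export are partly set by iron-responsive elements, hairpins with a CAGTGN loop to which iron regulatory proteins bind. They are shown for the members whose reference mRNAs held one, with the loop in capitals (GRCm38, the transcript strand). The search asked for the loop, with any last base but G. It also asked for 5 base pairs below the loop (G with T allowed) and for a C before them. The members were searched in the transcript that the annotation numbers first, and 3 of the 10 held a match. For the share over protein-coding genes the transcript with the longest coding part was searched, and 159 of 15111 (1.05%) held a match. The 4 matches of *Tfrc* lie in the 3' UTR, and the matches of *Fth1* and *Slc40a1* in the 5' UTR.
Tfrc (chr16:32631219-32631247, strand +): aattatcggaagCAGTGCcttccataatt
Tfrc (chr16:32631598-32631626, strand +): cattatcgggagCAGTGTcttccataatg
Tfrc (chr16:32631663-32631691, strand +): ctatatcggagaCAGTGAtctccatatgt
Tfrc (chr16:32631710-32631738, strand +): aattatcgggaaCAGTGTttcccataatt
Fth1 (chr19:9982732-9982760, strand +): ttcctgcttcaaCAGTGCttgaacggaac
Slc40a1 (chr1:45925465-45925493, strand -): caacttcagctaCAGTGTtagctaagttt
When iron is low, binding in the 3' UTR protects *Tfrc* mRNA from decay, and binding in the 5' UTR blocks translation of *Fth1* and *Slc40a1* mRNA.

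*Tfrc*, transcript of transferrin receptor 1 for cellular iron uptake, was at 39.2, 19.3, 32.2, 25.9 and 22.4 CPM, a mean of 27.8 ± 7.99 CPM (SD, n = 5 libraries). Library 1 had 2.04 times as much as library 2. On the log2 scale 96.4% of genes had a lower SD.

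*Fth1*, the ferritin heavy chain that stores iron, was the most abundant member by CPM. It was at 3014, 2666, 2836, 2405 and 2598 CPM, a mean of 2704 ± 232 CPM (SD, n = 5 libraries). It was highest in library 1 and lowest in library 4, the library with the highest *Hamp*. The balance of uptake and storage mRNA can be read as *Tfrc* minus *Fth1* on log2(CPM + 1). It averaged -6.59 ± 0.32 (SD, n = 5 libraries) and ran from -7.04 in library 2 to -6.23 in library 1.

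*Slc40a1* encodes ferroportin, the exporter that hepcidin binds, made in Kupffer cells and hepatocytes. It was at 82.4, 89.4, 82.0, 102 and 86.8 CPM, a mean of 88.6 ± 8.27 CPM (SD, n = 5 libraries). It was highest in library 4, as was *Hamp*. The summed level of 9 Kupffer cell and macrophage markers was 240, 304, 280, 182 and 150 CPM, so that library 4 was second lowest in these markers. The sum of 7 hepatocyte markers was highest in library 4, at 125539 CPM. The part of either cell type in the *Slc40a1* values was not tested.

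For the plasma side of iron transport, *Trf*, transferrin, was at 813, 751, 723, 680 and 695 CPM, a mean of 732 ± 52.6 CPM (SD, n = 5 libraries). *Cp*, ceruloplasmin, the plasma ferroxidase that loads iron onto transferrin, was at 765, 963, 995, 1085 and 887 CPM, a mean of 939 ± 120 CPM (SD, n = 5 libraries). Of the genes over the filter 29.5% had a lower SD on the log2 scale than *Trf* and 72.3% a lower one than *Cp*. Library 1 was highest for *Trf* and lowest for *Cp*, and library 4 the reverse. The sum of 7 hepatocyte markers was 91709, 115025, 116664, 125539 and 99430 CPM, also lowest in library 1 and highest in library 4, and ranked the libraries in the same order as *Cp*. Its part in the *Cp* values was not tested. *Cp* shares 108 exonic bases with *Hps3* on the opposite strand, where the same holds. *Trf* shares 2108 of its 3320 exonic bases with *Gm20425*, a gene on the same strand that is not in the deposited table. If the annotation used for counting held *Gm20425*, ambiguous reads there would be missing from *Trf* with or without strand.

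**Figure D2:**
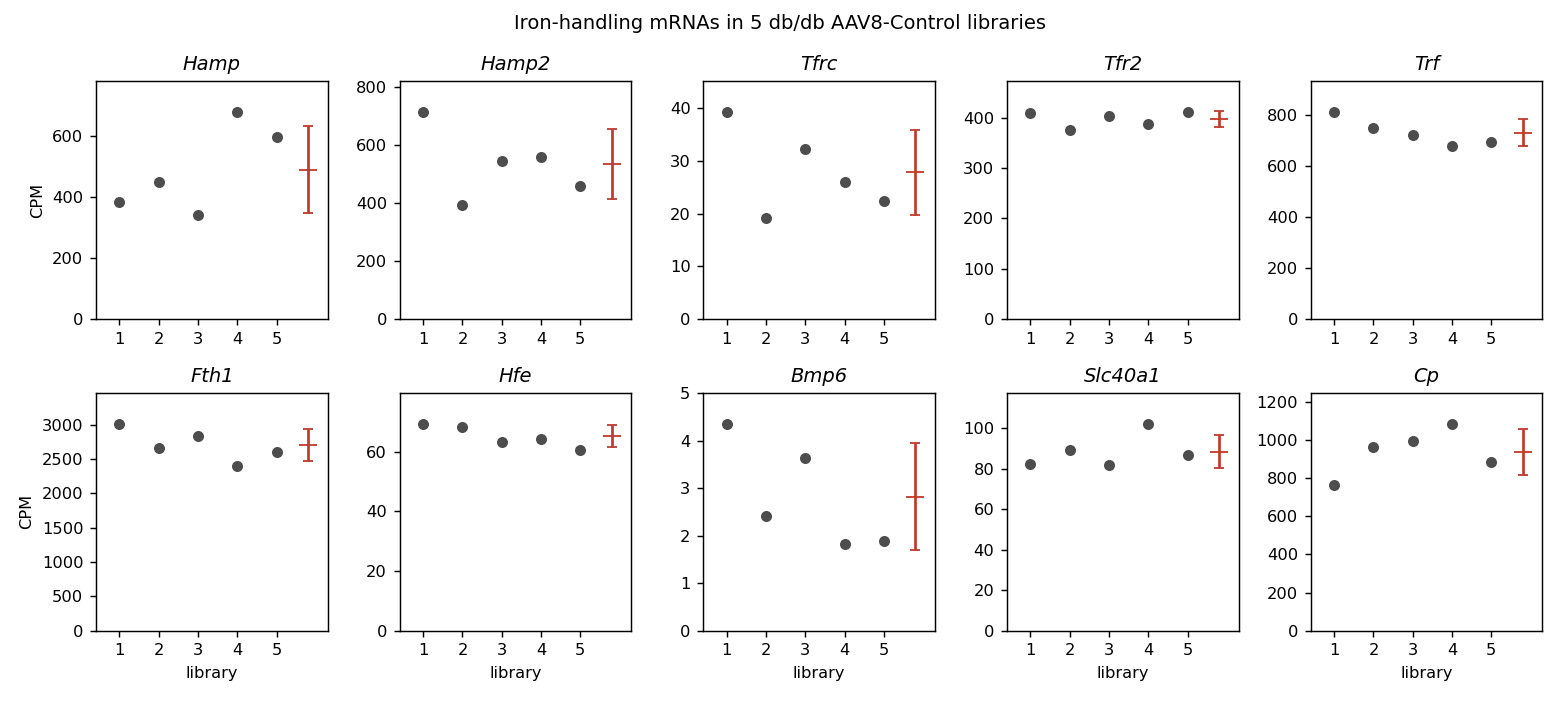
CPM (vertical axes, each from 0) of the 10 genes in AAV8-Control libraries 1 to 5, with the mean and SD in red to the right (n = 5 libraries). *Tfr2* and *Hfe* are nearly level across libraries, while *Bmp6* runs from 1.82 to 4.36 CPM and *Hamp* from 342 to 678 CPM.

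Since longer mRNAs give more reads, levels of different genes are also given as CPM per kilobase, over merged exons of all annotated transcripts and over the transcript that the annotation numbers first. Which member had the highest mean depended on this length. Over merged exons *Hamp* was at 1194, *Hamp2* at 916 and *Fth1* at 779 CPM per kilobase. Over the first transcript, which has 420 instead of 583 bases for *Hamp2* and 929 instead of 3469 for *Fth1*, *Fth1* was at 2910, *Hamp2* at 1272 and *Hamp* at 1194 CPM per kilobase. The libraries of *Hamp* and *Hamp2* overlapped on both lengths, so these 2 are not ordered here, and the hepcidin values lack the reads that the copies share. The values of *Trf*, *Cp* and *Bmp6* may lack reads where their exons overlap those of other genes. After *Hamp*, *Hamp2* and *Fth1*, the order was the same on both lengths. Over merged exons *Trf* was at 221, *Cp* at 98.2, *Tfr2* at 91.8, *Hfe* at 18.2, *Slc40a1* at 9.84, *Tfrc* at 4.50 and *Bmp6* at 0.723 CPM per kilobase. Over the first transcript these were at 285, 229, 136, 126, 26.3, 5.69 and 0.785 in the same sequence. The gap from *Hfe* to *Tfr2* nearly closed because the first transcript of *Hfe* has 516 bases against 3572 of merged exons. Whether this short transcript is the full *Hfe* mRNA was not checked, so 126 may be too high and is not read as a level near that of *Tfr2*. Over merged exons the libraries of *Fth1* overlapped those of both hepcidins and the libraries of *Cp* overlapped those of *Tfr2*, while over the first transcript every library of *Fth1* lay above those of both hepcidins. The libraries of *Trf* and *Cp* and of *Tfr2* and *Hfe* overlapped over the first transcript. The median over the 10 members was 95.0 CPM per kilobase of merged exons, beside 3.24 over all genes over the filter.

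**Figure D3:**
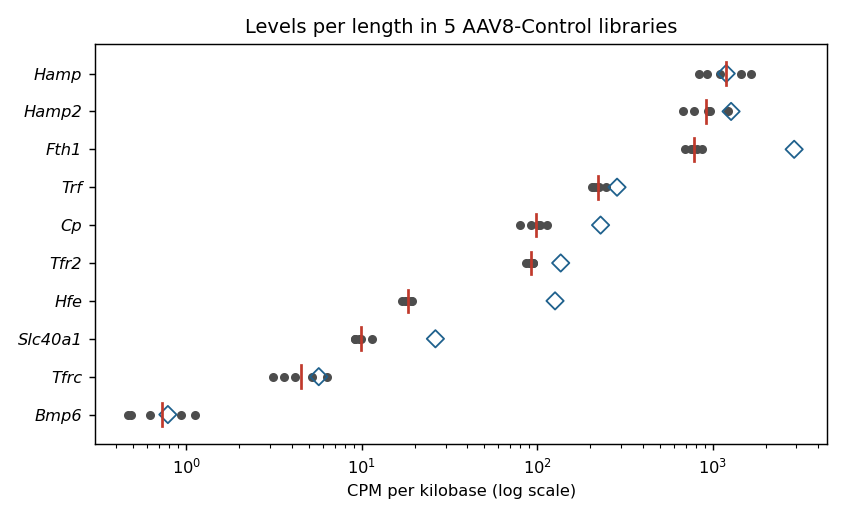
CPM per kilobase (horizontal log axis) of the 10 genes. Grey points are the 5 AAV8-Control libraries over merged exons, the red bar is their mean, and the open blue diamond is the mean over the first transcript. *Hamp* is at 1194 by both, *Fth1* moves from 779 to 2910, *Hfe* from 18.2 to 126, and *Bmp6* is last by both. The first transcript of *Hfe* has only 516 bases, so its diamond may lie too high.

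A wider list held 123 further names of genes of iron and haem handling and their regulators, some of them synonyms of the same gene. Of these genes 110 were in the table and 106 over the filter. Their median level was 7.91 CPM per kilobase of merged exons. The median SD on the log2 scale was 0.12 in this list, 0.16 in the members and 0.14 over all genes over the filter.

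In the BMP and SMAD branch of hepcidin control all 22 genes of the table were over the filter. The hepcidin activator hemojuvelin (*Hfe2*) was at 101 ± 18.7 CPM, and the suppressor *Tmprss6*, the protease that cleaves it, at 517 ± 63.3 CPM, which was the highest level of this branch per kilobase of merged exons. *Bmp2*, another endothelial ligand, was at 11.4 ± 2.27 CPM and thus above *Bmp6* also per kilobase, at 3.21 against 0.723 over merged exons and 0.785 over the first transcript. Spread among genes that BMP signals induce is given beside that of both ligands, with coefficients of variation of 19.9% for *Bmp2* and 39.9% for *Bmp6*. *Id1* (38.1%) was at 13.8, 10.3, 13.0, 11.3 and 3.77 CPM, a mean of 10.4 ± 3.97 CPM, and was lowest in library 5. *Smad7*, an inhibitor of SMAD signals, was lowest in the same library, with a mean of 11.2 ± 3.81 CPM (34.0%). *Smad6*, another such inhibitor, was at 8.35 ± 2.79 CPM (33.4%) and *Atoh8* at 32.9 ± 7.53 CPM (22.9%), and both were lowest in library 4. *Id2* at 103 ± 25.4 CPM (24.7%) and *Id3* at 52.9 ± 20.5 CPM (38.8%), of the same family as *Id1*, were lowest in library 5, so that 4 of these 6 genes were lowest in library 5 and 2 in library 4. All 6 were highest in library 1, as were 4171 of the 11041 genes over the filter. *Hamp* was second lowest in library 1, highest in library 4 and second highest in library 5. A link between *Hamp* and these genes was not tested.

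The median SD on the log2 scale was 0.10 over the 8 genes of the interleukin 6 and STAT3 branch. It was 0.17 over the 20 acute-phase genes listed as a readout of this input, and 0.23 in the BMP and SMAD branch. Both branch lists hold induced genes, among them *Socs3* in the interleukin 6 list, which is also among the 20. Induction of each of the 20 genes by interleukin 6 was not tested. The difference between the lists was not tested. *Il6ra*, the interleukin 6 receptor, was at 15.3 ± 1.32 CPM and *Stat3* at 82.7 ± 4.64 CPM. *Socs3*, a STAT3 target, was at 2.63 ± 0.61 CPM. Of the 20 acute-phase genes, 12 were highest in library 4, the library with the most *Hamp*, and 5 in library 3, 2 in library 1, 1 in library 2 and 0 in library 5, where *Hamp* was second highest. Of all genes over the filter 16.4% were highest in library 4. The hepatocyte marker sum was also highest there, at 125539 CPM against 91709 to 116664 CPM in the others, and its part in this count was not tested. *Saa1*, a serum amyloid induced by interleukin 6 and named here after its values were seen, was at 23.0, 37.5, 31.2, 59.7 and 24.2 CPM, so that it was highest in library 4 and second lowest in library 5. *Hp* and *Hpx*, the plasma binders of haemoglobin and haem, were at 1921 ± 300 and 2882 ± 269 CPM, and both were highest in library 3. For *Hpx* the margin was very small, with 3083 CPM in library 3, 3079 in library 4 and 3061 in library 2.

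Of the 8 genes of iron sensing inside the cell, the median SD on the log2 scale was 0.12. *Aco1*, which encodes iron regulatory protein 1, was at 307 ± 8.28 CPM, *Ireb2*, which encodes iron regulatory protein 2, at 54.6 ± 2.88 CPM, and *Fbxl5*, whose product marks the latter for degradation when iron is plentiful, at 28.3 ± 1.79 CPM. Per kilobase of merged exons *Aco1* was at 68.4 and *Ireb2* at 5.76 CPM.

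For entry and recapture, *Slc39a14*, a transporter of iron that is not bound to transferrin, was at 145 ± 13.5 CPM, and *Steap3*, a ferrireductase of endosomes, at 35.7 ± 4.25 CPM. Per kilobase of merged exons *Slc39a14* was at 13.7 CPM, above *Tfrc* at 4.50. Of the storage genes, *Ftl1*, the ferritin light chain, was at 311 ± 67.0 CPM, and *Ncoa4*, the receptor that brings ferritin to lysosomes, at 9.87 ± 0.55 CPM. Ferritin genes can have near-identical processed copies in the genome, and reads that align to several places were not counted, so their levels are uncertain. In haem metabolism *Alas1*, the first enzyme of the pathway in liver, was at 291 ± 49.8 CPM, and the inducible haem oxygenase *Hmox1* at 25.9 ± 3.07 CPM.

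**Figure D4:**
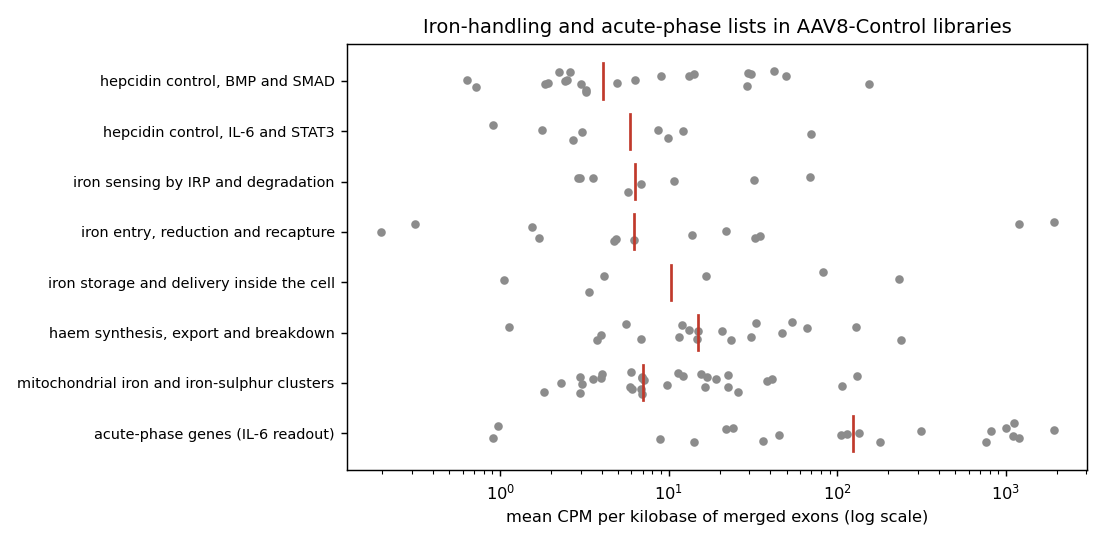
Mean CPM per kilobase of merged exons (horizontal log axis, n = 5 AAV8-Control libraries) of the lists of iron handling by role and of the acute-phase genes. Each point is a gene in a list, with *Hp*, *Hpx*, *Lcn2* and *Socs3* shown in 2 lists, and red bars are list medians. The median is 4.07 in the BMP and SMAD branch, 14.9 in haem synthesis, export and breakdown, and 124 in the acute-phase genes.

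All 7 hepatocyte markers passed the filter, as did all 9 of Kupffer cells and macrophages and all 8 of sinusoidal endothelial cells. Of all genes over the filter 4171 were highest in library 1, more than in any other. The sum of 8 erythroid and blood markers, a list that includes *Tfrc*, ranged from 282 to 367 CPM, with its highest value in library 1, which also had the most *Tfrc*. Stellate markers summed to 317 to 394 CPM and cholangiocyte markers to 33.5 to 53.9 CPM. Neutrophil and lymphocyte marker sums reached at most 2.65 CPM.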

How the data were processed

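The 5 AAV8-Control RNA-seq libraries were analysed, grouped by their labels. The other libraries of the series, and the comparison with them, are not reported here. Per the submitters' processing notes and the study's methods, single reads of 50 bases were aligned with STAR 2.0.4b to Ensembl release 76 (GRCm38.p2), and uniquely aligned reads that matched 1 gene were counted with featureCounts 1.4.5. The authors deposited CPM values, which are relative to all reads counted on genes, and nothing in the sources used here says more of their scaling. Whole reads were recovered from the CPM steps (at least 99.99% of values lay within 0.02 of a whole read), and 97.8 to 98.3% of reads were in the table. The table has 15236 lines for 15126 genes, and 110 repeated lines were dropped. The strand setting of the counting is not given in the sources used here.

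Levels are means with SD over libraries, and 11041 genes averaged 1 CPM or more. Spread was taken on log2(CPM + 1), which understates it for low genes. The labels do not state that the libraries came from separate mice, so n counts libraries and the spread may be partly technical. No pair of libraries was close to a duplicate (lowest chi-square per degree of freedom 15.9). Scalings by TMM (edgeR 4.0.16, R 4.3.3) and by DESeq2's size factors (1.42.0), a pseudocount of 0.1 and each library left out in turn were alternatives. The report of levels of single genes, their scalings and the transcript length were chosen after the data were seen, and the comparisons first designed are not reported.

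Positions and exons came from GENCODE M21 (GRCm38), which matched 15119 genes, and promoter windows from RefSeq (GRCm38.p6), handled with Python 3.11.15 and Biopython 1.88. The members and lists were chosen with earlier results of these data known. Named genes were all members and selected regulators of each branch, and *Saa1* was named after its values were seen.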

Additional observations from a re-analysis of the deposited data

How the results depend on the processing

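Scaling factors ran from 0.972 to 1.05, and TMM or DESeq2's size factors moved the mean of a member by at most 0.71%. With each library left out in turn, which by construction cannot move a mean of 5 by more than a part of the SD, *Bmp6* ran from 2.44 to 3.07 CPM, *Tfrc* from 24.9 to 29.9 CPM, *Hamp* from 442 to 526 CPM, *Hamp2* from 489 to 569 CPM, the *Hamp2* share from 49.2 to 54.6% and *Tfrc* minus *Fth1* from -6.68 to -6.48. A pseudocount of 0.1 CPM put the last at -6.64. Taking the length of the first numbered transcript in place of merged exons moved *Fth1* from 779, where its libraries overlapped those of both hepcidins, to 2910 CPM per kilobase, where they lay above them, and moved *Hamp2* from 916 to 1272, with *Hamp* at 1194. No paired analysis was possible because the values come from 1 group and from no test. The alternatives planned for comparisons between groups are not reported here. Depth limits *Bmp6* among the members, with 39 to 129 reads per library.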
